A study of Mus musculus with 5 samples.

Results

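The genes examined were the eukaryotic translation initiation factor (Eif) and elongation factor (Eef) genes of the mouse. A gene was taken when it was annotated as protein-coding and its symbol began with Eif or Eef followed by a digit, which gave 68 of the 55385 genes listed, 55 Eif and 13 Eef genes. Surface-seq sequences the RNA held on plasma membrane that was taken from EL4 cells, an established mouse T lymphoma line, and wrapped around polymer nanoparticles with its outer face outwards. In variation A (libraries A1, A2 and A3) the RNA was extracted from the particles, end-repaired and then given both adaptors, so both membrane sides could contribute. In variation B (libraries B1 and B2) the 3′ adaptor was joined to RNA on the intact particles, which favours outward-facing RNA, and the 5′ adaptor was added after purification. The comparison of variation B with variation A asks which RNAs were enriched when the 3′ adaptor was joined on the intact particles. All 5 libraries came from untreated cells of 1 line, and nothing in the labels says that they came from separate cultures, so the p-values measure the spread between these libraries, which may be technical. The 2 protocols also differ in end repair, purification, input and amplification, so protocol and outward-facing position cannot be told apart.

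Translation of an mRNA begins when eIF2 brings the initiator tRNA to the small ribosomal subunit, eIF3 holds that complex together, and eIF4F binds the mRNA cap and unwinds the leader. eIF5 and eIF5B then allow the large subunit to join, after which eEF1A delivers each aminoacyl-tRNA and eEF2 moves the ribosome along. Control acts mainly at 2 points: kinases that phosphorylate the alpha subunit of eIF2 lower initiation, and eIF4E-binding proteins block the cap-binding subunit. The values below are reads from the mRNAs of these proteins, not measures of the proteins or of translation.

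The libraries differed in depth and make-up. Variation A held 1187117 to 4502174 counts per library and variation B 21862003 to 22980172, of which 4282 to 19973 and 279424 to 303725 fell on the 68 genes. Ribosomal RNA genes took 50.0% to 54.0% of the counts in variation A and 23.0% to 24.2% in variation B. A1 stood apart from A2 and A3: small nuclear RNA genes took 0.847% of its counts against 12.1% and 13.1%, and its protein-coding share was 39.4% against 22.6% and 22.0%. All 8 T lymphocyte marker genes were detected in every library, with a summed level of 355 to 509 CPM (counts scaled to the library total) in variation A and 1669 to 1711 in variation B. The B cell, myeloid, erythroid and fibroblast lists, of 4 genes each, summed to at most 5.79 CPM in any library. Among the 68 genes, 62 to 64 were detected per library, 43 had at least 10 counts in every library, and 4 (Eif2s3y, Eif4e1b, Eif4e3 and Eif4ebp3) had 0 counts in all. A count of 0 allows up to 3 counts, which is 4.44 TMM-scaled CPM in A3 and 0.0710 in B2. TMM-scaled CPM is CPM computed on the counts of the tested genes, corrected by the TMM method of edgeR, and it is the level given for single genes below. This level is not corrected for gene length, so it compares libraries, and statements on which of several genes was higher use counts per kilobase of exon.

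Both families held a larger part of the counts in variation B. Of all counts, 0.322% fell on Eif genes in A1 (0.315 to 0.330, the Wilson interval at 95%). The same share was 0.215% for A2 (0.211 to 0.219) and 0.192% for A3 (0.184 to 0.200), against 0.779% for B1 (0.775 to 0.782) and 0.793% for B2 (0.790 to 0.797). Variation means were 0.243% ± 0.0696 (SD, n = 3) against 0.786% ± 0.0103 (SD, n = 2), a difference of 0.543 percentage points with no overlap (two-sided exact permutation test, p = 0.1, and 3 libraries against 2 can go no lower). Eef genes took 0.350% (0.342 to 0.358), 0.229% (0.224 to 0.233) and 0.169% (0.161 to 0.176) across A1 to A3, against 0.499% (0.496 to 0.502) for B1 and 0.528% (0.525 to 0.531) for B2. Their mean differed by 0.265 percentage points (two-sided exact permutation test, p = 0.1). The reads carry no molecular identifiers, so these intervals cover counting error only.

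**Figure D1:**
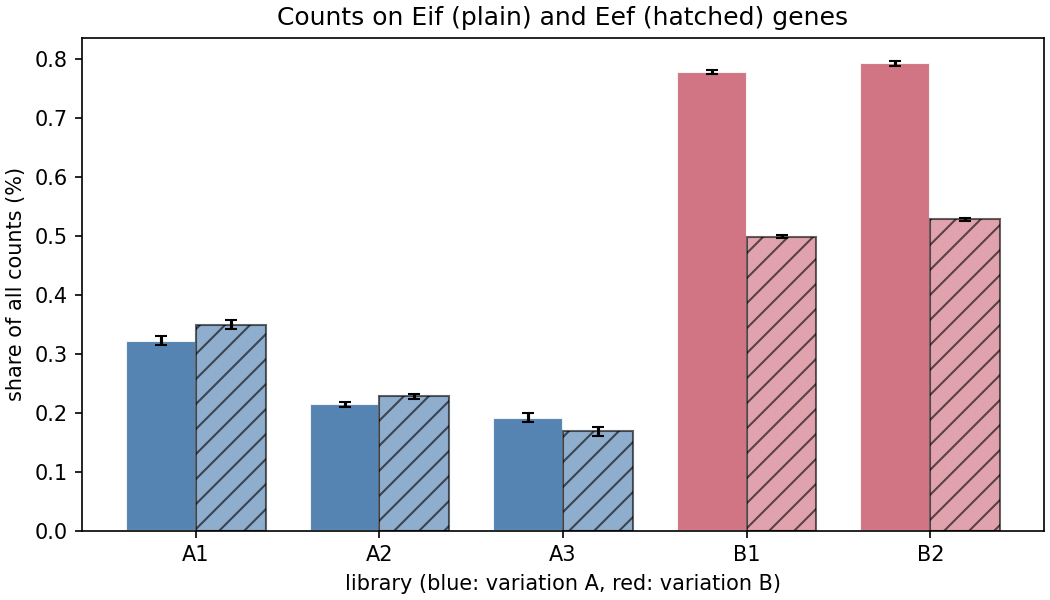
Share of all counts (%, y axis) on Eif genes (plain bars) and Eef genes (hatched bars) in each library (x axis), with 95% Wilson intervals. The Eif bars of B1 and B2, 0.779% and 0.793%, stand above every variation A bar, and in A1 and A2 the Eef bar is the taller of the pair.

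The 2 families parted once the other RNA classes were set aside. Of the counts on nuclear protein-coding genes, Eif genes took 0.820%, 0.953% and 0.875% across A1 to A3, against 1.23% in both variation B libraries, a difference of 0.347 percentage points (two-sided exact permutation test, p = 0.1). Eef genes took 0.890%, 1.01% and 0.768% against 0.787% and 0.821%, where the groups overlapped and the means differed by -0.0862 percentage points (two-sided exact permutation test, p = 0.5). The larger Eef share of all counts was thus not seen within the mRNA counts. Within the counts of the 68 genes alone, Eef genes held 52.0%, 51.5% and 46.8% in variation A and 39.1% and 40.0% in variation B. The mean was 50.1% ± 2.91 (SD, n = 3) against 39.5% ± 0.639 (SD, n = 2), and this ratio does not depend on scaling between libraries. They differed by -10.6 percentage points (two-sided exact permutation test, p = 0.1). With counts per kilobase of exon the means were 58.7% and 48.7% (two-sided exact permutation test, p = 0.2). Without Eef2, the most counted gene, Eef genes held 43.1%, 28.3% and 28.2% in variation A and 16.6% and 18.4% in variation B. The means were 33.2% and 17.5%, a difference of -15.7 percentage points (two-sided exact permutation test, p = 0.1). Eef2 is an Eef gene whose mean share of these counts was not lower in variation B (24.6% and 26.7%). Leaving it out was therefore bound to widen the difference. Eef1a1 held 32.0%, 14.9% and 17.3% of these counts in variation A, and 7.70% and 9.58% in variation B. Without Eef1a1, an alternative chosen after seeing the data, Eef genes held 29.5%, 43.0% and 35.6% in variation A. They held 34.0% and 33.6% in variation B. The groups then overlapped through A1 alone and differed by -2.24 percentage points (two-sided exact permutation test, p = 0.7). Leaving out a gene already seen to be lower was bound to shrink the difference, so it does not decide what the difference rested on. A total of 4 comparisons of this kind were planned, and none can pass a threshold of 0.05 with 3 libraries against 2.

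A pair of elongation factors, eEF1A and eEF2, supplied much of the signal, and they behaved differently. Eef2, encoding the translocase (chromosome 10 of GRCm38, 81176631 to 81182498, plus strand), was counted 2421, 6465 and 1108 times across A1 to A3, and 75335 and 80214 times in variation B. These were 1201, 2515 and 1641 TMM-scaled CPM against 1838 and 1899, so both variation B values fell inside the range of variation A. The fitted log2 fold change was 0.07 (SE 0.46, edgeR, Benjamini-Hochberg adjusted p = 0.926). Eef1a1, encoding the main tRNA carrier (chromosome 9, 78478449 to 78489151, minus strand), stood at 2453, 1156 and 1099 TMM-scaled CPM in variation A and 525 and 689 in variation B. Both variation B libraries lay below all of variation A, with a log2 fold change of -1.37 (SE 0.50) that did not pass the test (edgeR, Benjamini-Hochberg adjusted p = 0.0751, with DESeq2 adjusted p = 0.0217 and a range of 0.00503 to 0.977 over the 15 alternatives). The lowest of these came without A1, where the log2 fold change shrank to -0.77 and was not a call. Of the counts on the pair, Eef1a1 held 67.1% in A1, 31.5% in A2 and 40.1% in A3, but only 22.2% (B1) and 26.6% (B2) in variation B. Per kilobase of exon, Eef1a1 had the highest mean level of the 68 genes in variation A (630, against 537 for Eef2), and Eef2 the highest in variation B (562, against 243 for Eef1a1). The order in variation A rested on A1, with 984 against 361 there, while Eef2 led in A2 (757 against 464) and in A3 (494 against 441). Eef1a1 is uncertain because 51.9% of its 30-base sequences also occur in other annotated genes, against 22.3% for Eef2. Reads with several alignments were left out of the counts, which bears on the order of the pair. The Eef1a1 paralog Eef1a2 had at most 1 count in a variation A library and 9 and 19 in variation B.

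Among the genes for the 3 subunits of eEF1B, which reloads eEF1A with GTP, 1 was called lower in variation B and none was called higher. Over all genes tested, 12.4% were called lower and 11.0% higher, so this count is a description. Eef1g, the gamma subunit, fell from 72.4, 131 and 47.4 TMM-scaled CPM to 26.3 and 34.5, a 2.81-fold lower level (log2 fold change -1.49, SE 0.44, edgeR, Benjamini-Hochberg adjusted p = 0.0403). The values of the other genes of the group were mixed. Eef1d stood at 56.0, 61.1 and 35.5 in variation A and 30.0 and 23.5 in variation B, below all of variation A but not past the test (log2 fold change -0.95, edgeR, Benjamini-Hochberg adjusted p = 0.0671). It was called lower under upper-quartile normalization (-1.07, edgeR, Benjamini-Hochberg adjusted p = 0.0425). With the length trend removed it was also called lower (-1.09, edgeR, Benjamini-Hochberg adjusted p = 0.0466). Eef1b2 stood at 154 (A1), 62.6 (A2) and 59.2 (A3), and 117 and 113 in variation B lay between those values. Without A1, Eef1b2 was called higher (log2 fold change 1.03, edgeR, Benjamini-Hochberg adjusted p = 0.00057, the lowest of the 15 alternatives, which reached 0.890). Eef1e1, which encodes a partner protein of the tRNA synthetase complex, had only 2 to 9 counts per variation A library. In Eef1g 47.8% of the 30-base sequences are shared with other genes.

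None of the 4 tested genes for enzymes that modify the elongation factors passed the test in edgeR, and DESeq2 called 0. Over all genes tested, edgeR called 11.0% higher and 12.4% lower. DESeq2, run on 25327 genes, called 4.44% of them higher and 6.76% lower. At an unadjusted p under 0.05 (edgeR) 2 of the 4 were higher, a description with no share of all genes to set beside it. Eef2k, encoding the kinase that inhibits eEF2, rested on 61, 148 and 43 counts in variation A and 4229 and 3924 in variation B. Its TMM-scaled CPM was 30.3, 57.6 and 63.7 against 103 and 92.9, with no overlap (log2 fold change 0.98, SE 0.35, edgeR, Benjamini-Hochberg adjusted p = 0.0741). Eef1akmt2, a lysine methyltransferase of eEF1A, had a log2 fold change of 1.33 (edgeR, Benjamini-Hochberg adjusted p = 0.0812), and without A1 it was called higher at 1.93.

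**Figure D2:**
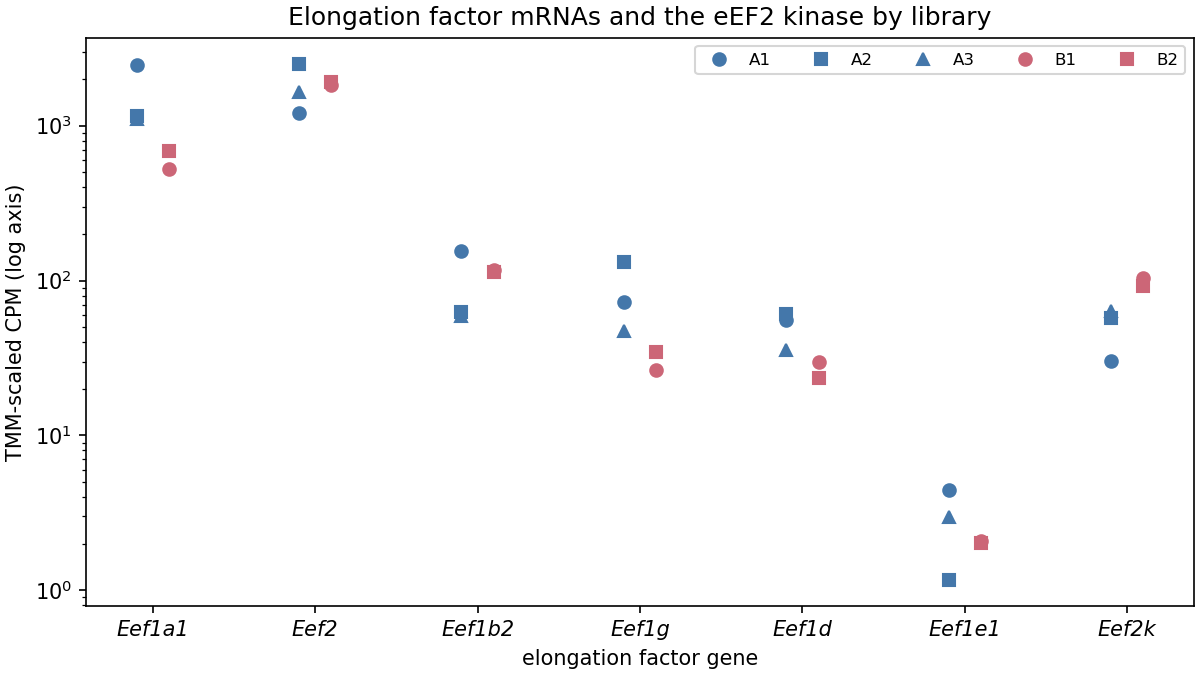
TMM-scaled CPM (log y axis) of the elongation factor genes and the eEF2 kinase gene in the single libraries (blue, variation A; red, variation B; symbols mark the replicate). Eef2 is level between the variations, Eef1a1 and Eef1g lie lower in both red libraries and Eef2k higher, of which only Eef1g passed the test.

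Across all 60 genes that had enough counts to be tested, 50 Eif and 10 Eef, changes went both ways and few passed. A total of 5 were higher in variation B (8.33%, against 11.0% of all 10287 genes tested) and 4 were lower (6.67%, against 12.4%), by edgeR at a Benjamini-Hochberg adjusted p below 0.05 with more than a 2-fold change. Over protein-coding genes alone the background was 10.3% higher and 12.0% lower. Both shares lay below the background, so calls were not more frequent among these genes than elsewhere. All 5 genes called higher were Eif genes, and of the 4 called lower 3 were Eif genes and 1 was an Eef gene. The log2 fold changes had a median of -0.01, with 30 above and 30 below 0, against 0.05 over all genes tested, and the quartiles were -0.53 and 0.57 against -0.81 and 0.84. Both variation B libraries lay above all of variation A for 13 genes (background 31.2%) and below for 14 (background 26.7%), and the other 33 overlapped. B1 and B2 were within 1.5-fold of each other for 55 of the 60 genes.

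These calls depended on the scaling and on single libraries. Scaling on library totals alone moved the median over all genes to 1.50 on the log2 scale, and that over the 60 genes to 1.43. Of the 60 genes, 33 were then called higher and 0 lower (edgeR). The 33 were 55.0% of the 60 genes, against 55.1% of all genes higher and 2.93% lower, and genes called higher then made up 94.96% of all calls against 47.1% under TMM. Of the 30 genes below 0 under TMM, 29 lay above 0 on library totals. The exception, Eef1a1, was at -0.023 there, so each lower level given here is relative to the TMM scale. Without A1, 20 of 62 tested genes were called higher, 32.3% against 20.8% of all genes, and 5 lower, 8.06% against 15.0%. The 20 included the same 5 genes, and the 5 lower ones included the same 4. A1 was higher than both A2 and A3 for 34 of the 60 genes (56.7%, against 42.9% of all genes). Without A2, A3, B1 or B2, 1 gene was called higher in each case, which was Eif2ak3, and at most 1 was called lower. Of all genes, 1.55% to 3.57% were called higher and 1.32% to 3.86% lower in these fits.

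**Figure D3:**
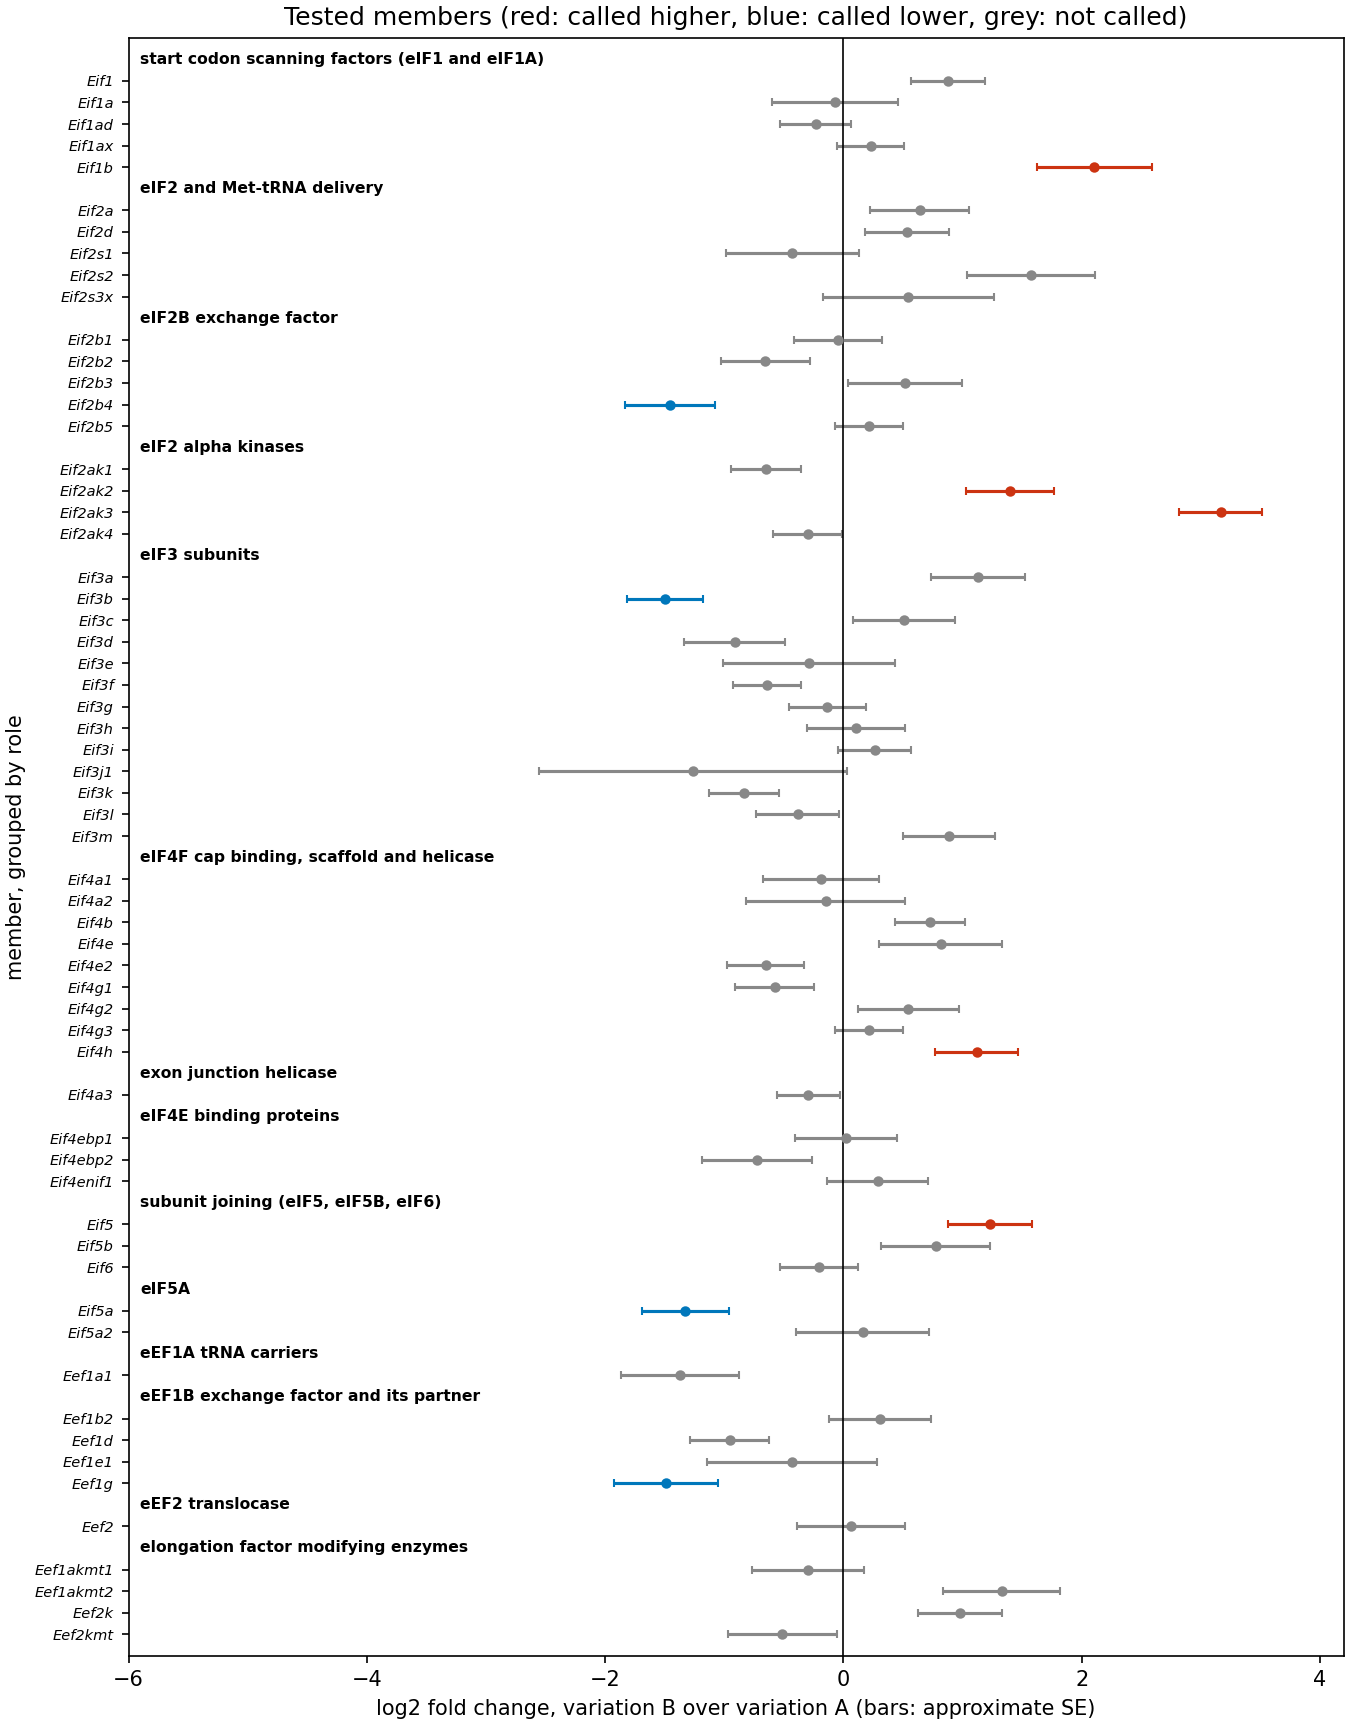
Log2 fold change of variation B over variation A (x axis, with the approximate SE) for the 60 tested genes, grouped by role (y axis), on the TMM scale. Red points were called higher (5), blue points lower (4) and grey points were not called; Eif2ak3 lies farthest to the right at 3.17, and on library totals all 4 blue points would lie just above 0.

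The largest change in the set was in the eIF2 alpha kinases, the sensors that slow initiation under stress, of which 2 of 4 were called higher. Counts in such small groups, here and below, are descriptions beside the 11.0% higher and 12.4% lower among all genes. Eif2ak3 (ENSMUSG00000031668.14, chromosome 6 of GRCm38, 70844515 to 70905245, plus strand) encodes PERK, a kinase anchored in the endoplasmic reticulum membrane that responds to unfolded proteins. Its counts were 87, 83 and 14 across A1 to A3, against 11914 (B1) and 12643 (B2). The TMM-scaled CPM was 43.1, 32.3 and 20.7 against 291 and 299, with means of 32.1 ± 11.2 (SD, n = 3) and 295 ± 6.01 (SD, n = 2). Both variation B libraries stood far above every variation A library, and the fold change was 8.98 (log2 3.17, SE 0.35, edgeR, Benjamini-Hochberg adjusted p = 0.00139). This placed the gene 218th of the 10287 genes by log2 fold change. It kept its call under all 15 alternatives tried, where the log2 fold change ran from 2.88 to 4.58 and the adjusted p reached at most 0.0140. Only 6.88% of its 30-base sequences occur in another gene, and the unclassified gene that overlaps it on the other strand held at most 11 counts in any library.

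Eif2ak2, encoding PKR, the kinase activated by double-stranded RNA, rose from 12.9, 8.17 and 5.92 TMM-scaled CPM to 23.8 and 26.1 (log2 fold change 1.40, SE 0.37, edgeR, Benjamini-Hochberg adjusted p = 0.0293). Its values rest on 26, 21 and 4 counts in variation A. A 5S ribosomal RNA gene, n-R5s29, overlaps it on the other strand with 13, 33 and 9 counts in variation A and 3265 and 1203 in variation B; the counting used no strand, and the part of that overlap in the result was not tested. The kinases that sense haem and amino acid shortage were not called. Eif2ak1 stood at 30.3, 30.3 and 28.1 against 20.7 and 17.1 (log2 fold change -0.65, edgeR, Benjamini-Hochberg adjusted p = 0.134), and Eif2ak4 at 24.3, 26.1 and 23.7 against 19.7 and 20.6 (log2 fold change -0.30, edgeR, Benjamini-Hochberg adjusted p = 0.464). The 4 kinase genes can be set against each other within a library, without any scaling. Eif2ak3 held 39.0% (A1), 33.3% (A2) and 26.4% (A3) of their counts in variation A, and 81.9% (B1) and 82.4% (B2) in variation B. This ratio was chosen after the values of Eif2ak3 were known and is given without a test.

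**Figure D4:**
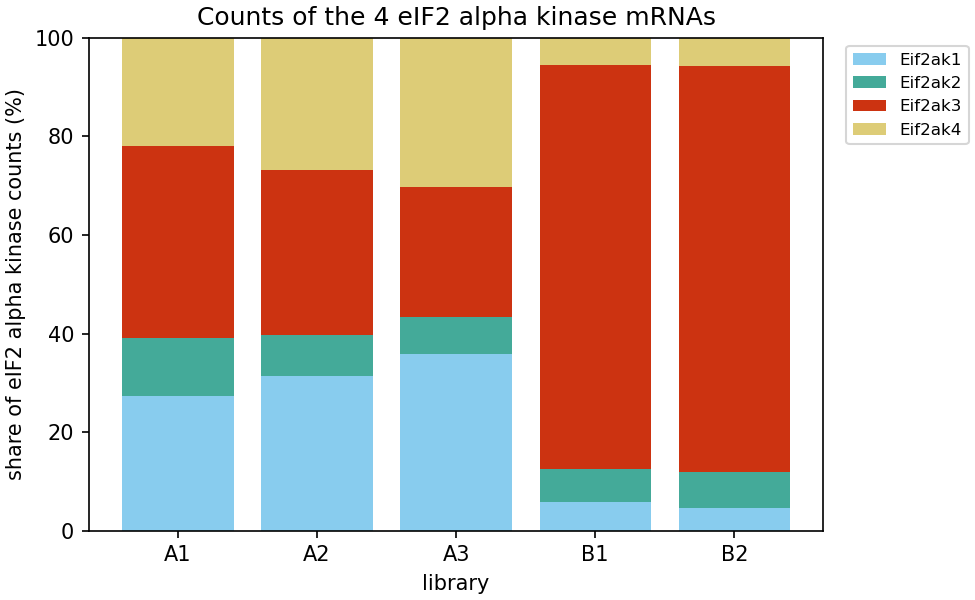
Share of the summed counts of the 4 eIF2 alpha kinase genes (%, y axis) in each library (x axis). Eif2ak3 fills 26.4% to 39.0% of the bar in variation A and 81.9% and 82.4% in variation B.

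Eif2s1, the alpha subunit that these kinases phosphorylate, stood at 16.4, 3.89 and 8.89 TMM-scaled CPM in variation A and 7.15 and 7.22 in variation B. Its log2 fold change of -0.43 (SE 0.56) was smaller than its error and turned positive without A1. None of the 5 tested genes for eIF2 and tRNA delivery was called by the main edgeR fit or by DESeq2. At an unadjusted p under 0.05 (edgeR) 1 was higher, a description with no share of all genes to set beside it. Without A1, 3 of the 5 (Eif2a, Eif2s2 and Eif2s3x) were called higher by edgeR, where 20.8% of all genes were. The gene with an unadjusted p under 0.05 (edgeR) was Eif2s2, the beta subunit. It stood at 22.3, 5.06 and 7.41 TMM-scaled CPM in variation A and 34.8 and 36.8 in variation B (log2 fold change 1.57, SE 0.54, edgeR, Benjamini-Hochberg adjusted p = 0.0635). Without A1, where it stood highest of the variation A libraries, its log2 fold change was 2.77 (edgeR, Benjamini-Hochberg adjusted p = 2.67e-05, the lowest of the 15 alternatives, which reached 0.244). With all 5 libraries, Eif2s2 was called higher under the replicate block (log2 fold change 1.66, edgeR, Benjamini-Hochberg adjusted p = 0.0319). The same held without a filter on low counts and with at least 10 counts in every library of one variation. The gamma subunit gene Eif2s3x had 37, 11 and 1 counts in variation A and 314 and 778 in variation B, and its log2 fold change of 0.55 (SE 0.72) was smaller than its error. In the eIF2B exchange factor, 1 of 5 genes was called lower: Eif2b4, the delta subunit, at 15.9, 31.1 and 28.1 against 9.08 and 9.04 (log2 fold change -1.45, SE 0.38, edgeR, Benjamini-Hochberg adjusted p = 0.0284). Without A1, Eif2b3 was called higher (log2 fold change 1.42, edgeR). Eif2b4 shares exon positions with Snx17, and reads over both genes were left out.

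Start codon scanning factors had 1 call in 5 tested genes. Eif1b, a close relative of the scanning factor gene Eif1, rose from 14.4, 5.83 and 2.96 TMM-scaled CPM to 32.1 and 40.7, which is 4.31-fold (log2 fold change 2.11, SE 0.49, edgeR, Benjamini-Hochberg adjusted p = 0.0190). The variation A values rest on 29, 15 and 2 counts, against 1314 and 1718 in variation B. Eif1 itself stood at 27.8, 22.2 and 17.8 against 47.5 and 37.3, also without overlap, and its log2 fold change of 0.88 was not called. Among the factors that act on subunit joining, Eif5, which stimulates GTP hydrolysis by eIF2, rose from 42.7, 30.0 and 17.8 to 70.3 and 75.6 (log2 fold change 1.23, SE 0.35, edgeR, Benjamini-Hochberg adjusted p = 0.0384). Eif5b, the GTPase that joins the subunits, and Eif6, which keeps the large subunit from joining early, had log2 fold changes of 0.78 and -0.20 and were not called. Without A1, Eif1 (1.14) and Eif5b (1.54) were also called higher by edgeR, and the log2 fold change of Eif1b was 2.94. For both Eif1b and Eif5, A3 was the lowest library.

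The eIF3 subunits spread in both directions, with 1 of 13 tested genes called. Their log2 fold changes ran from -1.50 to 1.13 with a median of -0.29, and together they held 17.5%, 14.6% and 17.1% of the counts of the 68 genes in variation A and 14.9% and 15.2% in variation B. Eif3b, a scaffold subunit (chromosome 5, 140419328 to 140443360, plus strand), lay at the low end and was the subunit with the highest level per kilobase of exon in variation A. It had 721, 1194 and 298 counts in variation A and 6188 and 6224 in variation B, or 358, 464 and 441 TMM-scaled CPM against 151 and 147. The level was 2.82-fold lower in variation B (log2 fold change -1.50, SE 0.32, edgeR, Benjamini-Hochberg adjusted p = 0.0148), and on library totals the log2 fold change was 0.0047. Eif3a, the largest scaffold subunit, lay at the high end with 181, 97.2 and 75.5 against 229 and 291 (log2 fold change 1.13, SE 0.40); it missed the edgeR threshold (Benjamini-Hochberg adjusted p = 0.0690) and passed in DESeq2 (adjusted p = 0.0364, with a range of 4.98e-05 to 0.479 over the 15 alternatives). Per kilobase of exon, Eif3b exceeded Eif3a 9.33-fold in variation A and 1.50-fold in variation B. Eif3c, a further core subunit and among the 10 genes with the highest mean TMM-scaled CPM, stood at 251, 96.5 and 113 TMM-scaled CPM in variation A and 213 and 225 in variation B, which lay between A1 and the other variation A libraries (log2 fold change 0.51, SE 0.43, edgeR, Benjamini-Hochberg adjusted p = 0.402). Without A1, 4 of 14 tested eIF3 genes were called higher by edgeR, Eif3a (1.68), Eif3c (1.21), Eif3e (1.36) and Eif3m (1.49) on the log2 scale, and 2 lower, Eif3b (-1.48) and Eif3d (-1.09), where 20.8% of all genes were called higher and 15.0% lower. Eif3j1 was the lowest tested subunit and the least steady, with 129 counts in B1 and 2 in B2. It shares 53.7% of its 30-base sequences with other genes, and Eif3j2, with at most 18 counts, shares 95.1%.

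In the cap-binding complex and its helpers, 1 of 9 tested genes was called higher. Without A1, 4 of the 9 were called higher by edgeR, where 20.8% of all genes were. These were Eif4h, Eif4e, Eif4a2 and Eif4g2, the last with a log2 fold change of 1.29 there. Eif4h, which stimulates the eIF4A helicase, had 624, 1162 and 325 counts in variation A and 37192 and 37631 in variation B. Its TMM-scaled CPM rose from 309, 452 and 481 to 908 and 891 (log2 fold change 1.12, SE 0.35, edgeR, Benjamini-Hochberg adjusted p = 0.0483), and the call was lost under 10 of the 15 alternatives. The related helicase cofactor Eif4b stood at 260, 295 and 244 against 433 and 450, without overlap and not past the test (log2 fold change 0.73, edgeR, Benjamini-Hochberg adjusted p = 0.104). Eif4g1, the scaffold, stood at 320, 496 and 384 against 264 and 274 (log2 fold change -0.58, edgeR, Benjamini-Hochberg adjusted p = 0.223). Eif4e, the cap-binding subunit, rested on 54, 36 and 3 counts in variation A, with a log2 fold change of 0.82 (SE 0.52), and without A1 it was called higher at 1.47. For the helicase paralogs, Eif4a1 held 58.6%, 75.0% and 70.0% of the counts of Eif4a1 and Eif4a2 in variation A and 60.8% and 64.4% in variation B. The difference of -5.30 percentage points lay within the spread between the 5 libraries (two-sided exact permutation test, p = 0.5). It depended on single libraries, at -9.93 without A1, where the groups did not overlap, and -1.73 without A2. Both paralogs were highest in A1, with Eif4a2 at 102 there against 19.1 in A2 and 17.8 in A3, and without A1 Eif4a2 was called higher (log2 fold change 1.32, edgeR, Benjamini-Hochberg adjusted p = 0.000722, the lowest of the 15 alternatives, which reached 0.968).

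The 3 tested eIF4E-binding protein genes were not called by either tool, and none had an unadjusted p under 0.05 (edgeR). Eif4ebp2, the most counted of them, stood at 123, 364 and 307 TMM-scaled CPM in variation A and 177 and 142 in variation B, and the groups overlapped through A1 (log2 fold change -0.73, SE 0.46). Eif5a encodes eIF5A, which relieves ribosomes stalled on proline stretches and carries the modified amino acid hypusine. It fell from 115, 223 and 187 to 60.2 and 79.3, a 2.51-fold lower level (log2 fold change -1.33, SE 0.37, edgeR, Benjamini-Hochberg adjusted p = 0.0340). Its paralog Eif5a2 had 2 to 10 counts per variation A library and a log2 fold change of 0.16 (SE 0.56).

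**Figure D5:**
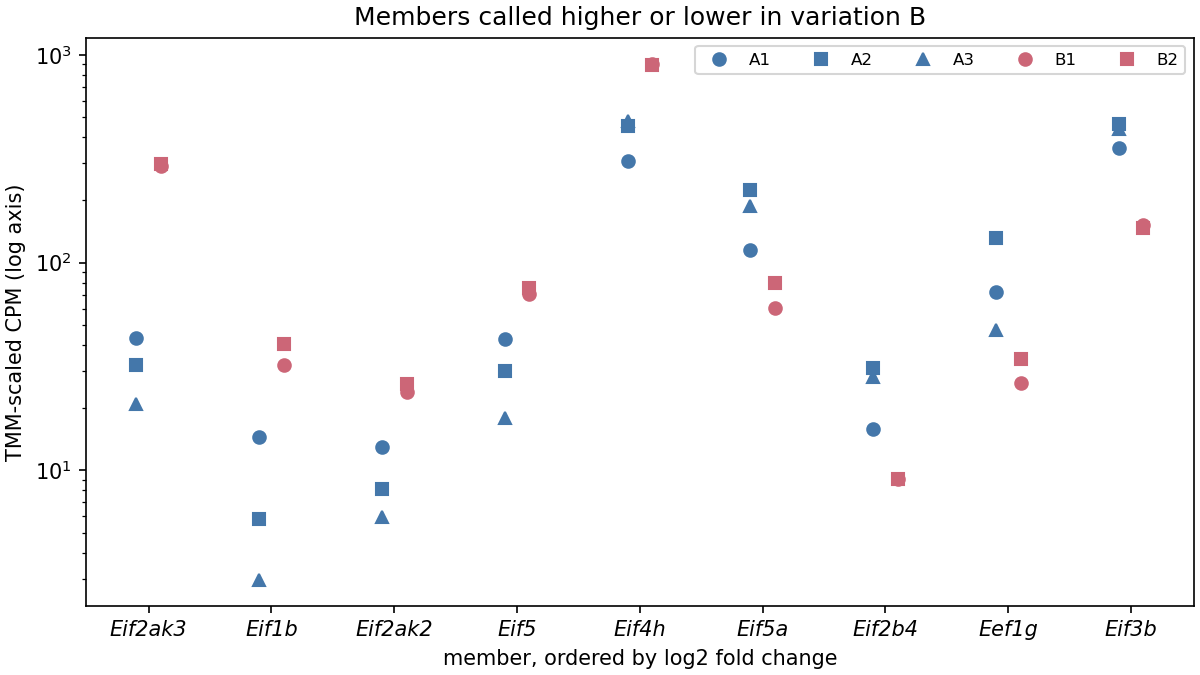
TMM-scaled CPM (log y axis) of the 9 called genes in the single libraries (blue, variation A; red, variation B; symbols mark the replicate), ordered by log2 fold change. B1 and B2 nearly coincide for most genes, and Eif2ak3 shows the widest gap, 20.7 to 43.1 against 291 and 299; on library totals the 4 genes on the right have log2 fold changes of 0.0047 to 0.22.

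Other translation genes outside the Eif and Eef families, from a list of 52 of which 51 were found and 49 tested, also moved both ways: 6 were called higher and 4 lower, around a median of 0.20 on the log2 scale. Over all genes tested 11.0% were called higher and 12.4% lower around a median of 0.05, so these counts lay near the background and are given as a description. Among 17 regulators of initiation, 2 were higher. Ppp1r15a, the phosphatase subunit that reverses eIF2 alpha phosphorylation, had 6, 16 and 0 counts in variation A and 1159 and 1033 in variation B (log2 fold change 2.77, SE 0.56, edgeR, Benjamini-Hochberg adjusted p = 0.0121). Pdcd4, an inhibitor of the eIF4A helicase, had a log2 fold change of 1.71 (edgeR, Benjamini-Hochberg adjusted p = 0.0170). Ppp1r15b, the constitutive counterpart of Ppp1r15a, was not called (log2 fold change 0.40, edgeR, Benjamini-Hochberg adjusted p = 0.298). Of 9 mitochondrial translation factors, 1 was higher (Mtif2) and 2 were lower: the elongation factor gene Tufm (log2 fold change -1.73, edgeR, Benjamini-Hochberg adjusted p = 0.0248) and its exchange factor gene Tsfm (log2 fold change -2.19, edgeR, Benjamini-Hochberg adjusted p = 0.0156). The remaining calls were Etf1, Eprs and Paip2b, which were higher, and Mcts1 and Pabpc4, which were lower.

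Many mRNAs of the translation machinery carry a 5′ terminal oligopyrimidine (TOP) tract, a C at the first base followed by further pyrimidines, through which their translation is controlled by mTOR. A start was counted as TOP-like when its first base was C and each of the next 4 bases was C or T, read on the gene's own strand from the RefSeq promoter table (GRCm38.p6), which held 52 of the 68 genes. Only Eif2s3x and Eif3f had such a start (3.85%, against 2.71% of 16513 protein-coding genes, 3.01% of all 27025 genes and 18.9% of 74 ribosomal protein genes). With the start moved by up to 5 bases either way it was 14 of 52 (26.9%, against 21.8% of protein-coding and 44.6% of ribosomal protein genes). Eef1a1 and Eif2ak3 lacked the tract at the annotated start but were both among these 14. The lines below give 5 bases before and 20 bases from the annotated start for those 2 genes, for Eef1a1 and for Eif2ak3, the most changed gene, with the unbroken pyrimidine run that begins with C at the start in capitals.
Eif2s3x, chrX:94212632-94212656, minus strand: ttttcCTTTTCTCTCCgagcaagat
Eif3f, chr7:108934410-108934434, plus strand: gctctCTCTCTTTCTCggcaagatg
Eef1a1, chr9:78481705-78481729, minus strand: ccctcttcccgagggtgggggagaa
Eif2ak3, chr6:70844510-70844534, plus strand: acgcaCggaaccctcgctcaatggg
Neither gene with a TOP-like start was called: Eif2s3x had a log2 fold change of 0.55 and Eif3f one of -0.64. The median log2 fold change was -0.05 over the 2 tested genes with a TOP-like start and 0.07 over the 47 without one. With a TOP-like tract within 5 bases of the start it was -0.38 over 13 tested genes, and 0.22 over the 36 without one. Neither difference was tested. Annotated starts can differ from those used in EL4 cells, so an absent tract says only that these letters are not in this window.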

How the data were processed

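Surface-seq was performed on EL4 cells in 3 libraries of variation A and 2 of variation B. The deposited values are whole-number counts per gene, made by the authors with Trimmomatic 0.36, STAR 2.7.3a and featureCounts 1.6.4 over GENCODE M24 exons (GRCm38, versions from the methods and the submitters' processing notes), with no strand option; reads with several alignments or over several genes were left out, which lowers repeated and overlapping genes. GENCODE M21 gave a symbol and type, by gene identifier, to 55144 of the 55385 genes. The variations were compared by the quasi-likelihood test of edgeR 4.0.16 (R 4.3.3) after filterByExpr and TMM. P-values were adjusted over the 10287 tested genes by Benjamini-Hochberg, and a call needed an adjusted p below 0.05 with more than a 2-fold change. On simulated counts for 10287 genes in this comparison, edgeR called 39.8% of 103 genes changed by 2 on the log2 scale and 88.7% of 97 changed by 3, and 5.93% of its calls were unchanged genes. The simulation changed only these genes, in random directions, so it does not measure error that comes from the scaling between libraries. Shares were compared by an exact permutation test (Python 3.11.15, scipy 1.17.1), with Wilson intervals at 95% and floors at 3 counts. The genes and lists were chosen with earlier results of these data known. Named were every called gene, the 10 with the highest mean TMM-scaled CPM, the elongation factor subunits, the extremes of eIF3 and 4 paralog pairs. Uncalled kinase genes, Eif2s1, Eif2s2, Eif2a, Eif2b3, Eif3d, Eif3e, Eif3m, Eif1, Eif5b and Eif6 were chosen after their values were seen. So were Eif3f, Eef2k, Eef1akmt2, Eif4e, Eif4g2 and other translation genes named beside these. Alternatives covered normalization, DESeq2 1.42.0, filters, totals, exon length, the replicate block and each library left out, and the Eef share without Eef1a1 was added after seeing the data. Protein sequences were not compared.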

Additional observations from a re-analysis of the deposited data

How the results depend on the processing

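Of the family shares, the Eif share of counts kept its direction under every other total and with each library left out, while the Eef share reversed to -0.0862 percentage points over nuclear protein-coding counts. The number of genes called higher, 5, became 33 on library totals, 3 with the replicate block, 2 with the block and the length trend removed, and 1 to 20 with single libraries left out. The number called lower, 4, became 0 on library totals, 1 without a filter on low counts, 1 with the replicate block, 1 with the block and the length trend removed, and 0 to 5 with single libraries left out. On library totals 29 of the 30 negative log2 fold changes among the 60 tested genes turned positive, Eif2ak4 (1.17) and Eif6 (1.31) among them. Of the genes followed through every setting, these were Eef1d (0.51), Eef1e1 (0.94), Eef1g (0.019), Eif2b4 (0.080), Eif3b (0.0047), Eif4a1 (1.13), Eif4a2 (1.11), Eif4ebp2 (0.86), Eif4g1 (0.94) and Eif5a (0.22), where the median of all genes moved to 1.50. Eef2 was at -0.066 under upper-quartile normalization, and Eif4a1 and Eif4a2 at 0.0076 and 0.041 without a filter. With single libraries left out, the log2 fold change ran from -0.86 to 0.37 for Eef1e1, -0.036 to 0.47 for Eef2, -0.20 to 1.99 for Eif2s3x, -0.42 to 0.60 for Eif4a1, -0.50 to 1.32 for Eif4a2 and -0.40 to 0.56 for Eif5a2. Beyond the constructions named, the cause was not tested. Same-numbered libraries did not deviate together (correlations across genes of -0.104 for A1 with B1 and -0.034 for A2 with B2). The deviations of B1 and B2 from their mean mirror each other, so these correlations cannot decide whether the numbers pair the libraries. With the block, 2 of the 5 higher calls and 1 of the 4 lower calls were shared with the fit without it, and the other higher call was Eif2s2. Eif2ak2, Eif4h, Eif5, Eif2b4, Eif3b and Eif5a lost their calls there. Over the 15 alternatives, a call was lost with its direction kept 10 times for Eif4h, 8 for Eif5a, and 7 each for Eif2b4 and Eif5. It was 6 each for Eif2ak2 and Eif3b, 5 for Eef1g and 4 for Eif1b. Leaving 1 library in variation B assumes that it varies like variation A. Depth limits A3, where 3 counts equal 4.44 TMM-scaled CPM.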

Other observations

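Small nucleolar RNAs (snoRNAs), short guides for chemical modification of other RNAs, are annotated inside several of these genes. Some lie in introns and some share positions with annotated exons of the host. Reads over both genes were left out, and how snoRNAs that share exon positions kept counts was not tested. Of 18 such snoRNA genes in 9 host genes, 5 had enough counts to be tested. The filter on low counts can be passed through variation B alone, so the direction shared by these 5 is a description and no count of them is read against the background. A further 2 with counts in every library were not tested. Gm23346, in an intron of Eif2ak3, had 2 counts in each variation A library against 20 and 25. In TMM-scaled CPM that is lower (0.992, 0.778 and 2.96 against 0.488 and 0.592). Gm24616, which shares positions with an exon of Eif4a2, had 4, 1 and 1 counts against 69 and 5. Snord37, in an intron of Eef2, was counted 47, 42 and 7 times across A1 to A3, and 15345 and 13115 times in variation B (log2 fold change 4.30, SE 0.37, edgeR, Benjamini-Hochberg adjusted p = 0.000577), while Eef2 itself had a log2 fold change of 0.07. Gm25835, in an intron of Eif4a1, had 66, 129 and 21 counts against 24998 and 21345 (log2 fold change 3.86, SE 0.35, edgeR, Benjamini-Hochberg adjusted p = 0.000628), while Eif4a1 had -0.19. Snord66, which shares positions with an annotated exon of Eif4g1, had 15, 43 and 6 counts against 2643 and 1898 (log2 fold change 2.25, edgeR, Benjamini-Hochberg adjusted p = 0.00839), while Eif4g1 had -0.58. Inside Eef1b2, Snora41 had 3, 8 and 2 counts against 587 and 342, and the snoRNA gene Gm26457 had 0 counts in variation A and 344 and 247 in variation B. These genes passed the filter only through variation B, so no test is given for them. The difference between a snoRNA and its host was not tested, and the snoRNAs were examined after other results of these data were known.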
